A study of Bos taurus with 4 samples.

Results

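Ubiquitin enzyme and F-box genes were taken here by name, as the noncoding transcripts whose gene, in the identifier given by the authors, has a name starting with USP, UBE, FBXO, FBXL, FBXW, TRIM, CUL or RNF, or is WWP1. There were 642 of them at 157 genes and 620 loci, out of 63845 transcripts in all. Of the 642, 594 lay within an intron of the gene and 48 overlapped an exon on the opposite strand (antisense). None was intergenic. WWP1 was added by name, with its high value in longissimus thoracis already known. Some of the names work on relatives of ubiquitin, such as UBE2F, an E2 of NEDD8. The transcripts are labelled noncoding, and no messenger RNA or protein of these genes was analysed here. No source used here says whether strand entered the counting, so reads of an antisense transcript and of its gene cannot be told apart, nor can those of an intronic transcript and of the unspliced gene.

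Ubiquitin is a small protein that marks other proteins for degradation or changes their activity. It is activated by an E1 enzyme, passed to an E2 conjugating enzyme (UBE2 genes) and attached to a target by an E3 ligase, and deubiquitinases (the USP family among them) remove it again. Cullins (CUL) are the scaffolds of the largest ligase class, F-box proteins (FBXO, FBXL, FBXW) bring targets to CUL1, and many RING finger (RNF) and tripartite motif (TRIM) proteins are ligases themselves. Skeletal muscle is known for TRIM63 (MuRF1) and FBXO32 (atrogin-1), ligases whose messenger RNAs mark muscle atrophy, and for TRIM55 (MuRF2) and TRIM54 (MuRF3), relatives of TRIM63 bound to the sarcomere and to microtubules.

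Illumina libraries were made from total RNA of 4 skeletal muscles of female Hereford cattle aged 18 months, fattened in 1 feedlot. The muscles were longissimus thoracis of the back, a scapula muscle, gluteus of the rump and an intercostal muscle. RNA of 3 animals was mixed in equal amounts per muscle, so each muscle had 1 library, the spread between animals is unknown, no test was possible and sizes alone are given. A pool of whole muscle also means that fewer cells of a type and less RNA per cell cannot be told apart.

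The unit FPKM is fragments scaled to a transcript length of 1 kilobase and a library total of 1000000, and RPM is reads scaled to that total without the length. The totals, recovered from the values, were 2132255, 1511933, 1107493 and 1318644 reads in longissimus thoracis, the scapula muscle, gluteus and intercostal muscle, and these are the denominators of the FPKM. Whether they count all mapped reads or those of listed transcripts alone is unknown, and reads recovered over the listed transcripts came to 2110057, 1512128, 1136247 and 1330224, above the total in 3 muscles. The ubiquitin gene transcripts held 34946, 20523, 18536 and 21963 reads. A range in parentheses is an exact 95% Poisson interval, which covers counting error only and not the spread between animals or libraries. PCR copies are not independent molecules, which the interval does not take into account. Files list only values above 0, and a transcript without a value is called not listed, with no fold printed against it. Of 22 symbols of skeletal muscle marker genes 8 had transcripts. These summed to 42069.5 RPM in longissimus thoracis, 58243 in gluteus, 48484 for the scapula muscle and 65161 for intercostal muscle. Of their 19 transcripts 9, or 47.4%, were lower in longissimus thoracis by 2-fold or more against the median of the others (21.3% of all transcripts). The other 14 symbols, among them ACTA1, CKM, DES and MB, had none listed. KLHL41 among these 14 is another symbol of KBTBD10, which had transcripts. Transcripts at 4 of 6 fibroblast markers summed to 8516 RPM in the scapula muscle, against 1747 in longissimus thoracis, 1488 in gluteus and 3912 in intercostal muscle, with none listed at COL1A2 or LUM. Those at 4 of 6 smooth muscle markers summed to 3038 RPM in intercostal muscle and to 1032 to 1353 elsewhere, with none at CNN1 or TAGLN. The part of these cells in the values below was not tested.

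The antisense transcripts were few and abundant, and the intronic ones many and sparse. Antisense transcripts summed to 12995 RPM for longissimus thoracis, 14111 for gluteus, 10035 for the scapula muscle and 13537 for intercostal muscle, and intronic ones to 3394, 2626, 3539 and 3118 RPM. The median listed antisense transcript stood at 87.5, 69.7, 72.3 and 62.3 FPKM, listing longissimus thoracis first, then the scapula muscle, gluteus and intercostal muscle, and the median intronic one at 33.0, 25.8, 33.5 and 28.9. The same medians over every antisense transcript of the tables were 55.2, 50.3, 61.3 and 60.3 FPKM, and over every intronic transcript 30.8, 25.8, 23.7 and 25.7. Of the 48 antisense transcripts 34, or 70.8%, were listed in all 4 muscles, against 56.4% of the 2516 antisense transcripts in the tables. Only 34 of the 594 intronic ones, or 5.72%, were listed in all 4, against 6.87% of 26452. Antisense transcripts also had longer recovered lengths, with a median of 916 nucleotides against 256.5. These are lower bounds, looser for transcripts listed in fewer muscles, so the size of the gap is not known.

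The antisense transcripts of highest mean level were at USP13, USP28 and CUL5. The transcript opposite USP13, a deubiquitinase that acts in autophagy, stood at 650.4 FPKM for longissimus thoracis (635 to 666), 765 for the scapula muscle (746 to 785), 944 for gluteus (918 to 969.6) and 1324 for intercostal muscle (1296 to 1352). Intercostal muscle was highest, 1.40-fold (1.36 to 1.45) above gluteus, and no intervals overlapped. The muscle marker sum stood in the same order of muscles. Of its 19 transcripts, however, 1, or 5.26%, was higher in intercostal muscle by 2-fold or more (26.4% of all transcripts). Lower there were 6, or 31.6% (17.9% of all). The part of the marker sum in the USP13 values was not tested. Opposite USP28, a deubiquitinase of MYC and of DNA damage signalling, the values were 673 FPKM for longissimus thoracis (638 to 711), 312 for the scapula muscle (283 to 342), 1219.5 for gluteus (1153 to 1289) and 293 for intercostal muscle (263 to 325). Gluteus was highest and longissimus thoracis next, while the scapula and intercostal values overlapped. A second USP28 antisense transcript (TCONS_00066418) stood at 13.7 FPKM for longissimus thoracis, 193 for gluteus, 138 for the scapula muscle and 1.70 for intercostal muscle. Gluteus was again high and intercostal muscle low, the latter from 1 read, but here the scapula muscle stood near gluteus and longissimus thoracis did not.

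The 3 cullins CUL1, CUL4A and CUL5 had an antisense transcript, each with another order of muscles. CUL5, the scaffold of ligases that use SOCS-box receptors, had 729.9 FPKM for longissimus thoracis (711 to 749), 301 for the scapula muscle (287 to 316), 543 for gluteus (521 to 566) and 404 for intercostal muscle (386 to 422). All 4 intervals were apart, with longissimus thoracis 2.42-fold (2.30 to 2.56) above the scapula muscle. CUL4A, the scaffold that pairs with DDB1, went the other way, with 61.2 FPKM for longissimus thoracis (54.4 to 68.7), 253 for the scapula muscle (236 to 270.4), 366 for gluteus (342 to 391) and 297 for intercostal muscle (278 to 318). Longissimus thoracis lay 4.13-fold (3.61 to 4.74) below the next muscle. CUL1, the scaffold of the F-box ligases, had 134 FPKM for longissimus thoracis (117 to 152), 190.2 for the scapula muscle (166 to 217), 161 for gluteus (135 to 190.2) and 372 for intercostal muscle (336 to 411), so that intercostal muscle stood above the other 3. CUL3, the scaffold of the kelch ligases, had 2 intronic transcripts of 5 and 6 reads, 1 each in the scapula and intercostal muscles, and none in longissimus thoracis or gluteus.

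Among E2 enzymes the transcript opposite UBE2B, an E2 of the N-end rule pathway and of histone H2B, was the most abundant. It stood at 610.2 FPKM for longissimus thoracis (589 to 632), 288 for the scapula muscle (271 to 307), 368 for gluteus (345 to 392) and 284 for intercostal muscle (266 to 303). Longissimus thoracis was 1.66-fold (1.54 to 1.78) above gluteus, and the scapula and intercostal values overlapped. Its paralogue UBE2A had an intronic transcript with 409.7 FPKM for longissimus thoracis (386 to 434), 183 for the scapula muscle (165 to 204), 396 for gluteus (364 to 430.0) and 272 for intercostal muscle (248 to 298), where longissimus thoracis and gluteus overlapped and lay above the other 2. UBE2D1, an E2 used by many ligases, had an antisense transcript at 192 FPKM for longissimus thoracis (178 to 206), 117 for the scapula muscle (104 to 131), 216 for gluteus (196 to 238) and 115 for intercostal muscle (101 to 129.5), with the same pairing of muscles. Opposite UBE2E3 the values ran from 115 FPKM in gluteus to 242 in longissimus thoracis. UBE2V2, an E2 variant without a catalytic cysteine that pairs with UBE2N, varied little, from 115 FPKM in intercostal muscle to 173 in the scapula muscle. UBE2G2, an E2 of endoplasmic reticulum degradation, had 10.9 FPKM for longissimus thoracis (7.25 to 15.8), 177 for the scapula muscle (159 to 198), 156 for gluteus (136 to 179) and 134 for intercostal muscle (117 to 153). Here longissimus thoracis had 28 reads and lay 12.3-fold (8.27 to 19.0) below intercostal muscle, the next lowest.

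RING finger and TRIM genes were high in longissimus thoracis in some cases and low there in others. RNF11, a RING protein that binds NEDD4-family ligases, had 462 FPKM for longissimus thoracis (439.9 to 484), 183 for the scapula muscle (167 to 201), 422 for gluteus (393 to 452) and 245 for intercostal muscle (225 to 267) on the opposite strand. RNF103, a ligase of the endoplasmic reticulum, had 87.5 FPKM for longissimus thoracis (71.2 to 106), 16.0 for the scapula muscle (8.54 to 27.4), 65.7 for gluteus (46.7 to 89.8) and 5.66 for intercostal muscle (1.54 to 14.5). In both, longissimus thoracis and gluteus lay above the scapula and intercostal muscles. RNF126, a ligase for mislocalised proteins, instead had 22.5 FPKM for longissimus thoracis (12.6 to 37.1), 123 for the scapula muscle (93.1 to 158), 196 for gluteus (152 to 249) and 143 for intercostal muscle (109 to 184). TRIM41 had 12.1 FPKM for longissimus thoracis, 61.3 for gluteus, 50.2 for the scapula muscle and 109 for intercostal muscle, so longissimus thoracis was lowest in both, by 5.45-fold (3.05 to 10.4) for RNF126 and 4.14-fold (2.31 to 7.83) for TRIM41. TRIM23 was lowest in gluteus at 22.4 (17.0 to 29.0) FPKM and lay between 52.2 and 88.2 FPKM elsewhere. A further RING gene, RNF160 (listerin, a ligase of stalled ribosomes), stood at 139 FPKM in longissimus thoracis and 138 in intercostal muscle. These differed by 1.01-fold (0.880 to 1.16), and the scapula muscle was lowest at 76.4 FPKM. TRIM33, a SMAD4 ligase, stayed between 72.6 and 96.4 FPKM in its antisense transcript, and TRIM24, its relative, between 103 and 153 FPKM.

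Of the F-box genes, FBXO28 had the most abundant antisense transcript, at 287 FPKM for longissimus thoracis (276 to 298), 137 for the scapula muscle (128 to 146), 218 for gluteus (204 to 232) and 129.7 for intercostal muscle (120.3 to 139.6). FBXW7, the receptor of cyclin E and MYC, had 121 FPKM for longissimus thoracis (109 to 133), 86.8 for the scapula muscle (75.4 to 99.4), 179.7 for gluteus (160.4 to 201) and 145 for intercostal muscle (129 to 162), lowest in the scapula muscle. FBXO34 differed by 1.33-fold (1.08 to 1.63) at most, from 105 FPKM in intercostal muscle to 139 in the scapula muscle. FBXL4, a mitochondrial F-box protein that limits mitophagy, had 136 FPKM for longissimus thoracis (114 to 161), 72.9 for the scapula muscle (54.4 to 95.6), 24.9 for gluteus (13.2 to 42.5) and 61.1 for intercostal muscle (43.2 to 83.8). Longissimus thoracis was highest and gluteus lowest, with 13 reads. FBXO33 had 1 antisense transcript low in intercostal muscle, at 7.36 (3.92 to 12.6) FPKM against 28.3 to 43.0 elsewhere, and a second whose values of 17.4 to 33.4 FPKM overlapped.

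**Figure D1:**
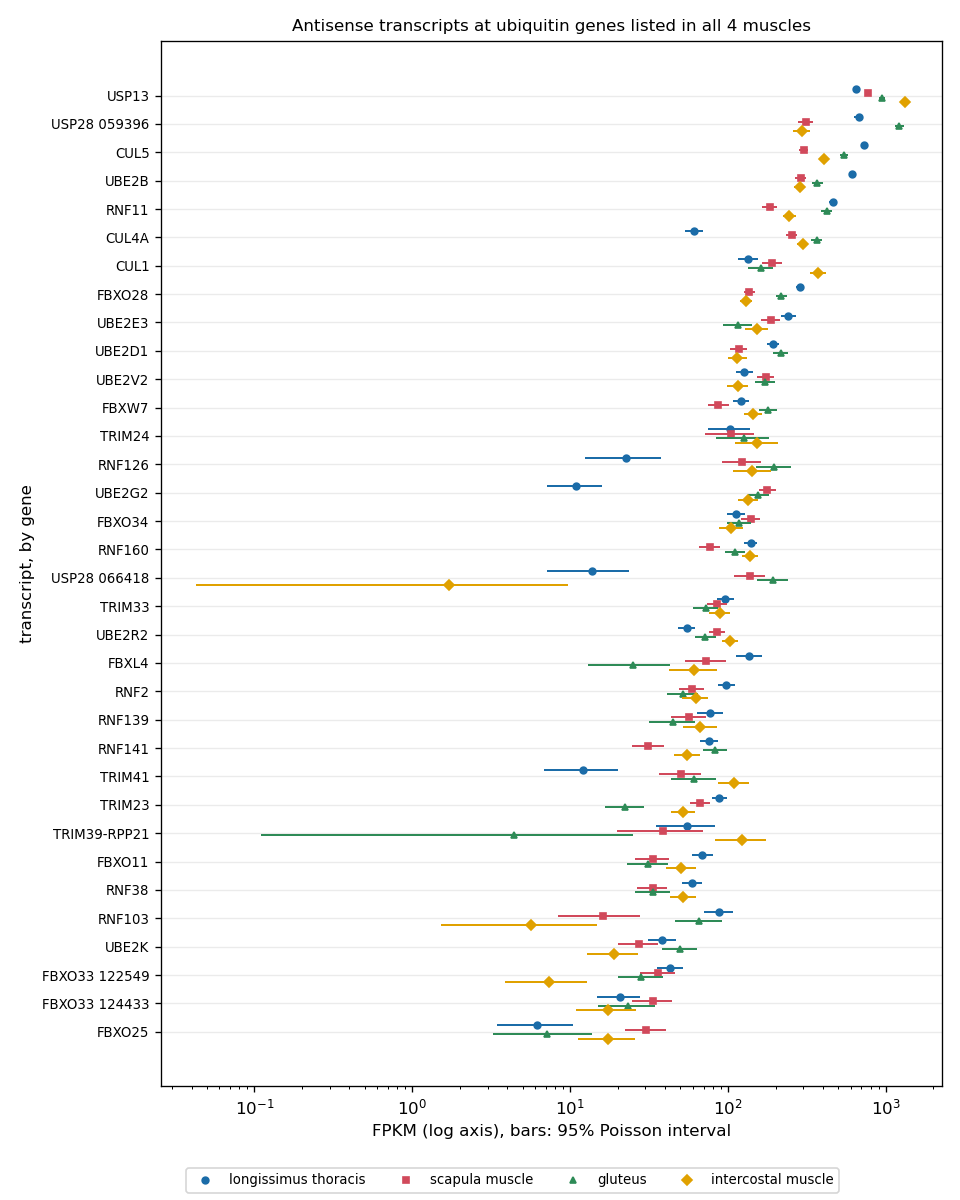
FPKM on a log axis for the 34 antisense transcripts listed in all 4 muscles, 1 row per transcript in order of mean level, with symbols for muscles and bars for 95% Poisson intervals of a single library. USP13 leads, longissimus thoracis lies far to the left for CUL4A, UBE2G2, RNF126 and TRIM41, and 11 rows span under 2-fold.

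Across these 34 antisense transcripts the highest and the lowest muscle differed by a median of 2.32-fold, from 1.33-fold at FBXO34 to 113-fold (19.8 to 4514) at the second USP28 transcript, which had 1 read at its lowest. The median over the 1420 antisense transcripts of the tables listed in all muscles was 2.95-fold. Under 2-fold lay 11 of the 34 and at 4-fold or more another 11. The highest value was in longissimus thoracis for 15, in gluteus for 8, in intercostal muscle for 6 and in the scapula muscle for 5. Of all 48 antisense transcripts, longissimus thoracis was highest in 35.4% (28.2% of the 2516 in the tables) and gluteus in 29.2% (26.2%). Intercostal muscle was highest in 18.8% (22.7%) and the scapula muscle in 16.7% (23.0%). Longissimus thoracis and gluteus were the 2 highest in 9 of 34, or 26.5%, against 25.1% of the 1420. The scapula and intercostal muscles were the 2 highest in 3, or 8.82%, against 20.1%. Levels of the 34 correlated across transcripts with Pearson's r from 0.58 (gluteus with intercostal muscle) to 0.83 (scapula muscle with gluteus), on log2(FPKM + 1). Points in such a correlation share a library and a depth, and genes are not independent replicates.

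Folds between muscles were larger for intronic transcripts than for antisense ones. The highest mean level after UBE2A was in TRIM45, a TRIM protein of MAP kinase signalling, at 26.5 FPKM for longissimus thoracis (19.2 to 35.7), 163 for the scapula muscle (140.2 to 188), 55.8 for gluteus (41.0 to 74.3) and 480.0 for intercostal muscle (438 to 525). Intercostal muscle was 2.95-fold (2.49 to 3.51) above the scapula muscle, and no intervals overlapped. An intron of UBE2D1 (TCONS_00154907) had 48.0 FPKM for longissimus thoracis (33.3 to 67.1), 249 for the scapula muscle (207 to 297), 70.7 for gluteus (46.2 to 104) and 116 for intercostal muscle (86.7 to 153), highest in the scapula muscle, where its antisense transcript was among the lower ones. USP53 introns differed within the gene, as TCONS_00213149 had 28.0 FPKM for longissimus thoracis, 72.0 for gluteus, 156 for the scapula muscle and 95.7 for intercostal muscle, and TCONS_00210593 had 75.5 FPKM for longissimus thoracis, 55.4 for gluteus, 38.0 for the scapula muscle and 8.72 for intercostal muscle. Longissimus thoracis was therefore lowest for the first and highest for the second. An intronic transcript of TRIM33 stood at 103 FPKM for longissimus thoracis (80.7 to 129), 9.64 for the scapula muscle (3.13 to 22.5), 7.90 for gluteus (1.63 to 23.1) and 33.2 for intercostal muscle (18.6 to 54.7), above each of the others in longissimus thoracis. TRIM7, known for binding glycogenin, had 2 transcripts, and in both gluteus was lowest, at 8.49 and 8.33 FPKM from 3 reads each, and intercostal muscle highest, at 90.3 and 49.0 FPKM. In all, 25 of the 34 intronic transcripts listed everywhere differed by 4-fold or more between their highest and lowest muscle, and the median was 5.77-fold, against 6.53-fold over 1818 such transcripts in the tables. Few reads leave some of these folds imprecise, as for FBXO42 (TCONS_00105700) at 40.4-fold (6.97 to 1624). The part of counting error in the larger intronic folds was not tested.

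**Figure D2:**
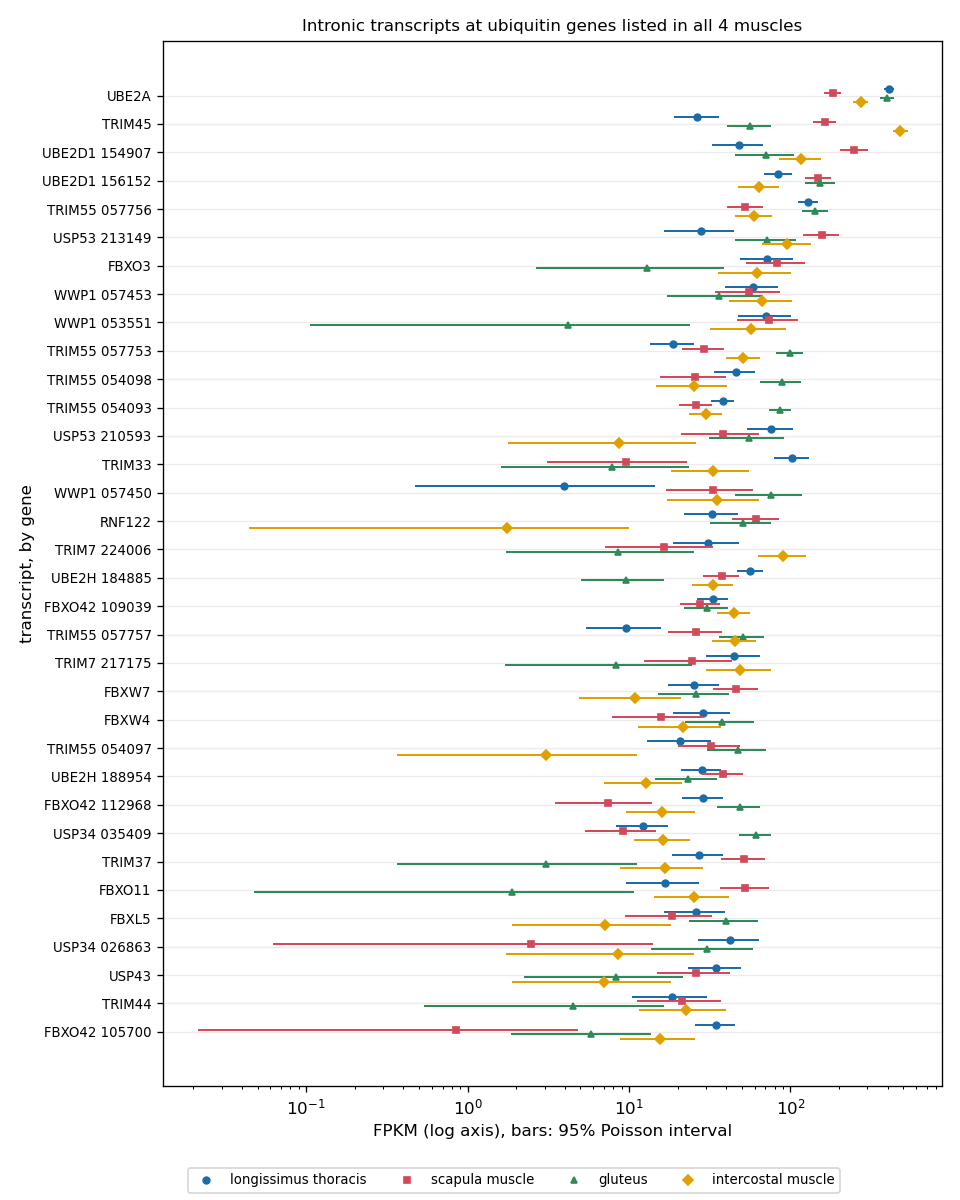
FPKM on a log axis for the 34 intronic transcripts listed in all 4 muscles, 1 row per transcript in order of mean level, with bars for 95% Poisson intervals of a single library. TRIM45 runs from 26.5 FPKM in longissimus thoracis to 480.0 in intercostal muscle, and the widest bars belong to values that rest on 1 read.

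The gene of sarcomeric MuRF2, TRIM55, had 12 intronic transcripts, and 6 of them were listed in all 4 muscles. TCONS_00054093, the longest at 2091 nucleotides, had 38.1 FPKM for longissimus thoracis (32.6 to 44.3), 25.9 for the scapula muscle (20.6 to 32.2), 86.4 for gluteus (74.8 to 99.2) and 30.1 for intercostal muscle (24.0 to 37.3). TCONS_00057753 had 18.6 FPKM for longissimus thoracis (13.7 to 24.9), 29.2 for the scapula muscle (21.7 to 38.3), 99.1 for gluteus (82.6 to 118) and 51.1 for intercostal muscle (40.4 to 63.8). In both, gluteus lay above each other muscle with no overlap of intervals. TCONS_00057756 had 128 FPKM for longissimus thoracis (113 to 146), 52.7 for the scapula muscle (41.0 to 66.7), 143 for gluteus (119.9 to 169) and 59.5 for intercostal muscle (46.2 to 75.5), so longissimus thoracis and gluteus overlapped there. Gluteus held the highest value for 8 of the 12 and the scapula muscle for the other 4, of which gluteus listed 1, at 15.6 FPKM. Summed over the gene, intronic reads came to 255 RPM for longissimus thoracis (234 to 277), 241 for the scapula muscle (217 to 267), 582 for gluteus (538 to 629) and 232 for intercostal muscle (207 to 259.6). Gluteus stood above the other 3, whose intervals overlapped.

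**Figure D3:**
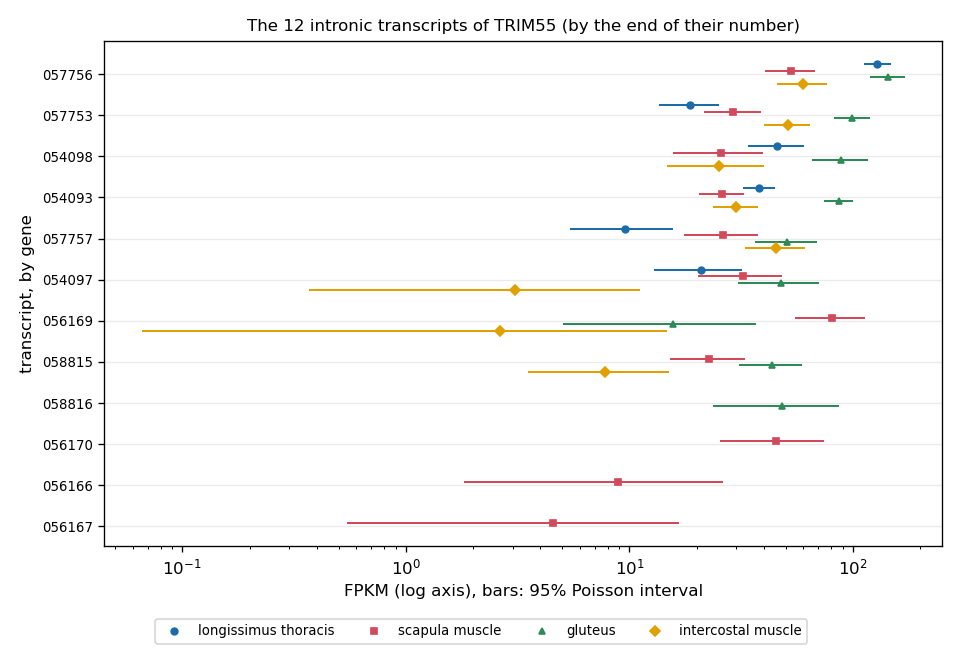
FPKM on a log axis for the 12 intronic transcripts of TRIM55, labelled by the last digits of their number, with bars for 95% Poisson intervals; a missing symbol means not listed. Gluteus is the rightmost symbol in 8 rows, and the lower rows hold transcripts listed for the scapula muscle or gluteus alone.

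The other muscle ligases gave few reads. FBXO32 had 1 intronic transcript, listed in longissimus thoracis alone, at 113 (83.3 to 149) FPKM from 49 reads. TRIM54 had 1, at 88.5 FPKM for longissimus thoracis (65.7 to 117), 2.50 for the scapula muscle (0.0632 to 13.9) and 5.72 for intercostal muscle (0.693 to 20.7), and was not listed in gluteus. Its scapula and intercostal values rest on 1 and 2 reads. TRIM63 had 1, at 13.5 FPKM for longissimus thoracis (5.43 to 27.8) and 21.8 for the scapula muscle (9.40 to 42.9), with 7 and 8 reads, and the intervals overlapped. These 3 therefore reached their highest value in longissimus thoracis or the scapula muscle, and none was listed in gluteus. Most intronic transcripts were not listed there, as gluteus listed 146 of the 594 in the set and 7434 of 26452 in the tables. FBXO32 and TRIM63 were also not listed in intercostal muscle. RNF123, a ligase of the cyclin inhibitor p27, had 3 intronic transcripts of 23.2 to 34.5 FPKM in the scapula muscle, and 1 read in another muscle. UBE4A, a U-box ligase, stood at 24.2 FPKM for longissimus thoracis (16.1 to 35.0), 34.1 for the scapula muscle (22.7 to 49.3) and 83.8 for intercostal muscle (63.9 to 108), and was not listed in gluteus. UBE4B, another U-box ligase, summed over its transcripts to 31.9 RPM for longissimus thoracis (24.8 to 40.4), 43.0 for the scapula muscle (33.2 to 54.8), 16.3 for gluteus (9.63 to 25.7) and 65.2 for intercostal muscle (52.2 to 80.5). USP14, USP19 and FBXO21 had 1 transcript each, of 3, 4 and 2 reads. Of 28 genes chosen for what is known of them in muscle, 21 had a transcript and FBXO30, FBXO40, FBXL21, TRIM32, TRIM72, USP1 and RNF207 had none listed.

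WWP1, a HECT ligase mutated in muscular dystrophy of the chicken, and UBE3A, the HECT ligase lost in Angelman syndrome, showed how transcripts and genes can differ. For WWP1, an intronic transcript (TCONS_00053555) stood at 149 FPKM for longissimus thoracis (115 to 189.5) and 35.2 for gluteus (15.2 to 69.4) and was not listed elsewhere. Another (TCONS_00057450) had 3.94 FPKM for longissimus thoracis (0.477 to 14.2), 33.3 for the scapula muscle (17.2 to 58.3), 75.9 for gluteus (46.3 to 117) and 35.0 for intercostal muscle (17.5 to 62.7), lowest in longissimus thoracis from 2 reads. The values of TCONS_00057453 overlapped, at 36.3 to 67.0 FPKM. Over its 7 transcripts the gene's intronic reads summed to 75.0 RPM for longissimus thoracis (63.9 to 87.6), 52.3 for the scapula muscle (41.4 to 65.1), 35.2 for gluteus (25.0 to 48.1) and 62.2 for intercostal muscle (49.5 to 77.2). UBE3A had 6 transcripts, of which 5 were listed in 1 muscle. The largest was in gluteus at 149 (104 to 207) FPKM, and others were listed for longissimus thoracis alone at 91.3 (66.0 to 123) and the scapula muscle alone at 59.9 (37.5 to 90.7) FPKM. Summed, UBE3A had 22.0 RPM for longissimus thoracis (16.2 to 29.3), 16.5 for the scapula muscle (10.7 to 24.4), 46.0 for gluteus (34.3 to 60.5) and 15.2 for intercostal muscle (9.26 to 23.4). Gluteus was highest, with intervals of the other 3 overlapping.

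Transcript numbers of the muscles' own transcripts followed the libraries. Of pairs of transcripts at the same gene that were each listed in 1 muscle, and in different ones, 742 of 745, or 99.6%, had numbers in the order longissimus thoracis, scapula muscle, intercostal muscle, gluteus. Over all named genes the share was 98.8% of 50283 pairs, and the order was chosen after seeing the numbers. The files give no coordinates, and whether such transcripts of 1 gene overlap was not tested. Intronic reads summed per gene are therefore given for the genes with most transcripts and for some of those described by single transcripts. RNF103 introns had no listed reads in longissimus thoracis and gluteus, where its antisense transcript was high, and 23.1 RPM for the scapula muscle against 31.9 for intercostal muscle. USP53 introns summed to 64.7 RPM for longissimus thoracis, 56.9 for gluteus, 86.6 for the scapula muscle and 54.6 for intercostal muscle, a narrower range than either transcript described. FBXW7 and FBXL4 introns were highest in the scapula muscle, at 41.0 (31.4 to 52.6) and 21.2 (14.5 to 29.9) RPM, unlike their antisense transcripts. Both intervals overlapped those of intercostal muscle, at 22.0 (14.7 to 31.6) and 12.1 (6.94 to 19.7) RPM. UBE2D1 introns summed to 68.9 RPM for longissimus thoracis (58.2 to 81.0), 247 for the scapula muscle (222 to 273), 158 for gluteus (135 to 183) and 128 for intercostal muscle (109.6 to 149), and UBE2G1 introns to 12.7 RPM for longissimus thoracis (8.34 to 18.4), 78.0 for the scapula muscle (64.6 to 93.5), 14.4 for gluteus (8.26 to 23.5) and 59.2 for intercostal muscle (46.8 to 73.8), both highest in the scapula muscle. TRIM17 had 1.41 RPM for longissimus thoracis (0.290 to 4.11), 39.7 for the scapula muscle (30.3 to 51.1), 15.3 for gluteus (8.94 to 24.6) and 62.9 for intercostal muscle (50.1 to 78.0), and TRIM7 was highest in intercostal muscle with 44.7 RPM and lowest in gluteus with 5.42. USP2, a clock-controlled deubiquitinase, had 21.6 RPM for longissimus thoracis (15.8 to 28.8), 19.8 for the scapula muscle (13.4 to 28.3), 6.32 for gluteus (2.54 to 13.0) and 0.758 for intercostal muscle (0.0192 to 4.23), the last from 1 read.

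Host genes differed in how many transcripts they carried, from 1 at 56 genes to 40 at FBXO11. The 16 genes with 10 or more held 267 of the 642. FBXO11, the F-box receptor of BCL6, had 38 intronic transcripts that summed to 233 RPM for longissimus thoracis (213 to 254), 134 for the scapula muscle (116 to 154), 45.1 for gluteus (33.5 to 59.5) and 57.6 for intercostal muscle (45.4 to 72.1). USP34, a deubiquitinase of the Wnt pathway, had 27, with 218 RPM for longissimus thoracis (199 to 239), 96.6 for the scapula muscle (81.5 to 114), 143 for gluteus (121 to 167) and 75.1 for intercostal muscle (61.0 to 91.4). Longissimus thoracis was highest in both. UBE2H, an E2 with 24 transcripts, had 262 RPM for longissimus thoracis (240.4 to 284), 192 for the scapula muscle (171 to 216), 32.5 for gluteus (22.8 to 45.0) and 108 for intercostal muscle (90.7 to 127). FBXL20, a neuronal F-box gene, had 25, with 76.4 RPM for longissimus thoracis (65.2 to 89.1), 114 for the scapula muscle (98.0 to 133), 15.3 for gluteus (8.94 to 24.6) and 140.3 for intercostal muscle (121 to 162). FBXW4 had 15, with 82.1 RPM for longissimus thoracis (70.4 to 95.2), 97.9 for the scapula muscle (82.8 to 115), 18.1 for gluteus (11.0 to 27.9) and 48.5 for intercostal muscle (37.4 to 62.0). In these 3 gluteus lay below every other muscle with no overlap, and listed 2 of 24, 1 of 25 and 2 of 15 transcripts. TRIM33 had 198 intronic reads in longissimus thoracis and 4 in gluteus, or 92.9 and 3.61 RPM. RNF115, a RING ligase of vesicle traffic, had 13 transcripts and the opposite order, with 19.2 RPM for longissimus thoracis (13.8 to 26.1), 43.7 for the scapula muscle (33.8 to 55.5), 82.2 for gluteus (66.2 to 101) and 71.3 for intercostal muscle (57.6 to 87.2). USP3, a deubiquitinase of histones, had 20 transcripts, 17 of them in 1 muscle, and its sums ran from 31.4 RPM in longissimus thoracis to 52.4 in gluteus, with overlapping intervals.

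**Figure D4:**
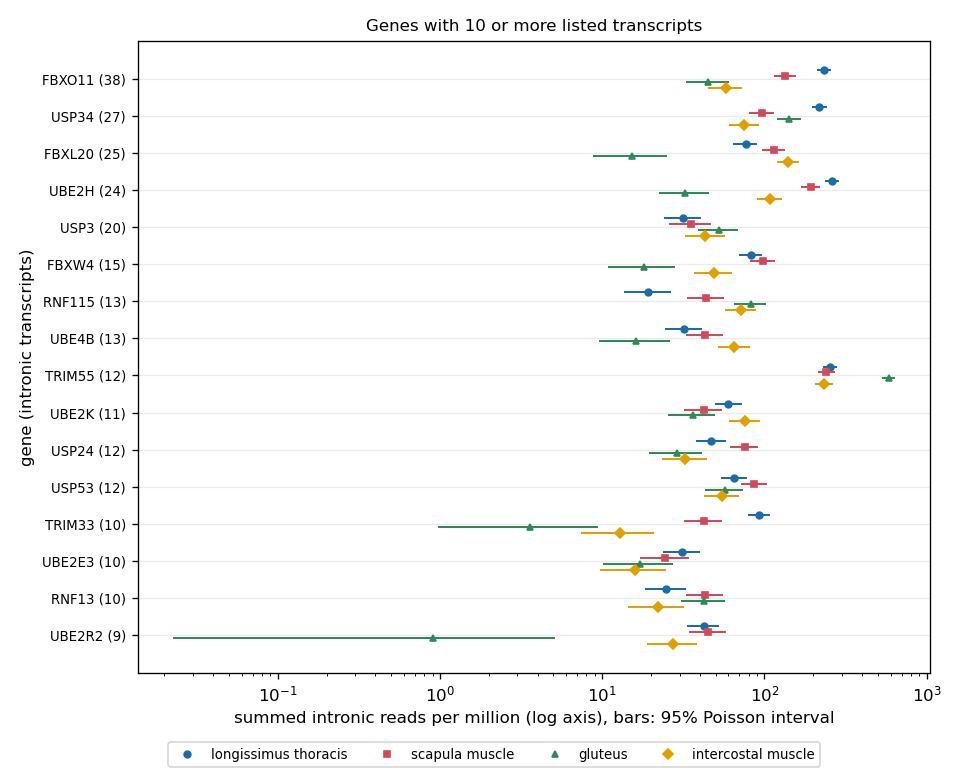
Intronic reads (RPM) summed over each of the 16 genes with 10 or more transcripts (log axis, intronic transcripts in parentheses), with bars for 95% Poisson intervals of a single library. Gluteus is far to the left for FBXL20, UBE2H, FBXW4, TRIM33 and UBE2R2 and to the right of the others for TRIM55.

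How many of the set stood apart in a muscle was counted by a rule of size, at least 2-fold on log2(FPKM + 1) against the median of the other 3, with 1 FPKM or more in a library. The rule takes a transcript not listed as 0, and 345 of the 642 were listed in 1 muscle, so many calls set a value against not listed. In longissimus thoracis 197 of 642, or 30.7%, were higher (37.2% of all transcripts) and 140, or 21.8%, lower (21.3% of all). In the scapula muscle 293, or 45.6%, were higher (43.2%) and 60, or 9.35%, lower (11.3%). In gluteus 107, or 16.7%, were higher (18.6%) and 164, or 25.5%, lower (23.7%). In intercostal muscle 194, or 30.2%, were higher (26.4%) and 105, or 16.4%, lower (17.9%). Within the 594 intronic transcripts the shares, with those of all intronic ones in parentheses, were 31.6% higher (38.4%) and 21.2% lower (20.3%) for longissimus thoracis, 48.5% higher (46.7%) and 9.09% lower (11.5%) for the scapula muscle, 16.7% higher (17.9%) and 26.4% lower (26.2%) for gluteus, and 31.1% higher (27.5%) and 16.8% lower (19.5%) for intercostal muscle. Within the 48 antisense transcripts, against all antisense ones, they were 18.8% higher (21.8%) and 29.2% lower (30.8%) for longissimus thoracis, 10.4% higher (27.5%) and 12.5% lower (14%) for the scapula muscle, 16.7% higher (20.6%) and 14.6% lower (18.6%) for gluteus, and 18.8% higher (20.1%) and 10.4% lower (16.9%) for intercostal muscle. The median log2 ratio was 0 in the set and over all transcripts in 3 muscles, and 0.24 against 0 in the scapula muscle. Values not listed enter as 0, so these medians say little about direction. Among the 68 listed in all 4 muscles the median was 0.32 in longissimus thoracis (0.07 over all such transcripts) and -0.25 in the scapula muscle (-0.01). In gluteus it was 0.19 (-0.08) and in intercostal muscle -0.22 (0.03). Over the whole set the shares called lie near those of all transcripts, and 19 of the 642, or 2.96%, passed the rule in no muscle (2.35% of all).

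**Figure D5:**
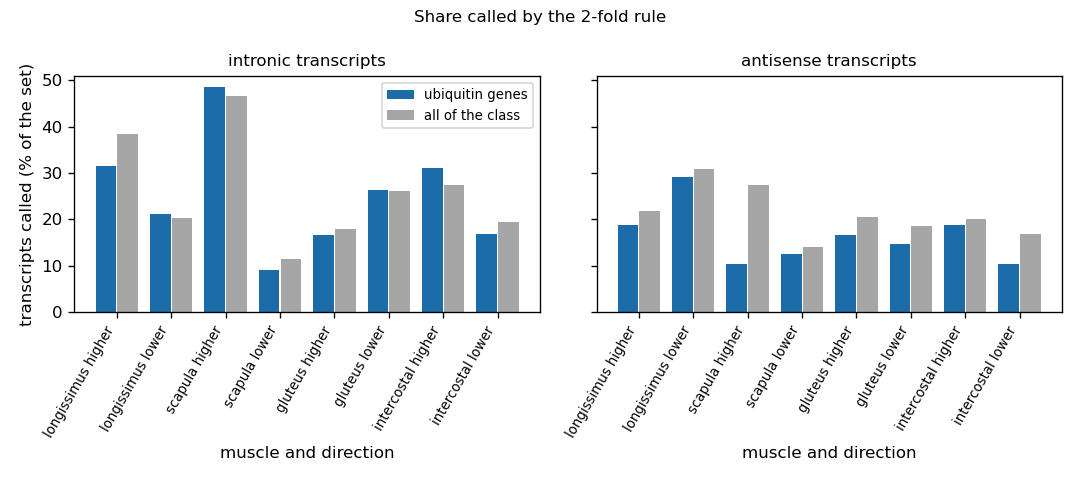
Percent of transcripts called by the 2-fold rule in each muscle and direction, for intronic (left) and antisense (right) transcripts, with the ubiquitin gene set in blue and every transcript of the class in grey. The widest gap is 31.6% against 38.4% for intronic transcripts (higher in longissimus thoracis) and 10.4% against 27.5% for antisense ones (higher in the scapula muscle, 5 of 48 transcripts).

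With the difference required against each of the other 3 muscles, longissimus thoracis had 147 higher, or 22.9% (27.8% of all), and 36 lower, or 5.61% (6.07%). The scapula muscle had 185 higher, or 28.8% (25.9%), and 5 lower, or 0.779% (1.74%). For gluteus there were 56 higher, or 8.72% (9.5%), and 33 lower, or 5.14% (5.1%). For intercostal muscle there were 108 higher, or 16.8% (13.8%), and 22 lower, or 3.43% (3.26%). By this stricter count 10 of the 48 antisense transcripts, or 20.8%, were lower in longissimus thoracis (17.6% of all antisense ones) and 2, or 4.17%, higher (12.2%). The 10 included CUL4A, UBE2G2, RNF126 and TRIM41, and also TRIM65, RNF144A and 1 transcript each at FBXO42, RNF125 and TRIM39-RPP21, none of these last 5 listed there. By sums of intronic reads per gene, a count added after seeing the data, 122 genes had 10 or more reads in a library. Of these, 54, or 44.3%, were lower in gluteus (39% of 4675 genes) and 19, or 15.6%, higher (14.6%). In the scapula muscle 54, or 44.3%, were higher (41.1%) and 9, or 7.38%, lower (12.7%). Longissimus thoracis had 39 higher, or 32% (36.6%), and 32 lower, or 26.2% (23.4%), and intercostal muscle 31 of each, or 25.4% (25.5% higher and 25.2% lower). UBE2H, FBXL20, FBXW4 and TRIM33 were among the 54 lower genes in gluteus.

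The 5 highest and 5 lowest ratios to the median of the other muscles, among transcripts with 10 or more reads in a library, were nearly all intronic and mostly listed in 1 or 2 muscles. In longissimus thoracis the highest were in USP13 at 154 FPKM, WWP1, FBXW4 at 126, FBXL17 at 121 and FBXO32, of which USP13, FBXW4 and FBXO32 were listed nowhere else. TRIM17, a TRIM protein of neuronal apoptosis, was not listed there in its main transcript (TCONS_00223577), which stood at 69.1 FPKM for the scapula muscle (52.8 to 89.0), 26.7 for gluteus (15.6 to 42.8) and 109.7 for intercostal muscle (87.3 to 136). In the scapula muscle the highest were in UBE2G1 at 93.5 FPKM, UBE2B, USP25, RNF130 and USP24, between 79.1 and 88.2 FPKM for the last 4. In gluteus UBE3A was followed by UBE2D2 at 138 FPKM, USP49, USP15 at 109.6 and RNF115 at 108, all 5 listed in gluteus alone. In intercostal muscle they were in CUL1 at 102 FPKM, UBE2G1, FBXW7, FBXL5 and FBXW12. The lowest there included USP2, which was not listed and stood at 51.1, 58.7 and 25.5 FPKM in longissimus thoracis, the scapula muscle and gluteus, and RNF13, at 50.7, 16.1 and 90.3 FPKM. The second USP28 antisense transcript was also among the lowest in intercostal muscle. A UBE2G1 transcript high in intercostal muscle, at 98.8 FPKM, was among the lowest in longissimus thoracis and gluteus, and a WWP1 transcript that reached 85.9 FPKM in intercostal muscle among the lowest in gluteus. A UBE3A transcript of 64.8 FPKM in gluteus and 68.0 in intercostal muscle was among the lowest in the other 2 muscles. The remaining low extremes were in UBE2D1, UBE2R2, UBE2K, FBXW2, USP24, USP34 and TRIM33, with at most 80.6 FPKM in any muscle.

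Roles differed in their sums by muscle. Transcripts at USP genes summed to 4509 RPM for longissimus thoracis, then 4752 (scapula muscle), 6275 (gluteus) and 7225 (intercostal muscle). Without the USP13 antisense transcript, left out after seeing the data, the USP sums were 1282, 954, 1594 and 657 RPM in the same order, so intercostal muscle went from highest to lowest. E2 genes had 3397, 2714, 2897 and 2465 RPM, and 1950.05, 2029.9, 2024 and 1791 without UBE2B antisense, lowest in intercostal muscle both ways. F-box genes had 2554, 1802, 1802 and 1575 RPM, lowest in intercostal muscle, but in gluteus without FBXO28 antisense (1367, 1237, 901 and 1038 RPM), and RING finger genes 1844, 1207, 1676 and 1351. Cullin genes had 3009, 1887, 2994 and 2503 RPM, with 239.7, 744, 933 and 971 RPM without CUL5 antisense, where longissimus thoracis went from highest to lowest. TRIM genes had 930.0, 1050.3, 986 and 1320 RPM. The 7 genes UBE3A to UBE3D, UBE4A, UBE4B and WWP1 had 145, 161, 107 and 217 RPM and no antisense transcript. Transcripts of 1 locus may share reads, and 43 of the 642 lay at 21 loci with more than 1. Listed were 275, 394, 188 and 288 transcripts at 111, 132, 100 and 116 genes, and the scapula muscle listed most although the total of longissimus thoracis was larger. Over all transcripts 31263, 37130, 20765 and 26216 were listed, also most in the scapula muscle. With reads thinned to the total of gluteus, the expected numbers listed in the set were 265.6, 379, 188 and 281.1. The thinning takes the listed transcripts as given, so it cannot show what the processing would list at that depth. The set made up 1.93%, 2.29%, 1.96% and 2.38% of the listed intronic transcripts.

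Other genes of the pathway, taken as 182 symbols outside the rule, had 629 transcripts at 111 genes, 35 of them antisense and 67 listed in all 4 muscles. LTN1 among these symbols, without transcripts, is the listerin gene that the set holds as RNF160. By the 2-fold rule 241, or 38.3%, were higher (37.2% of all transcripts) and 108, or 17.2%, lower (21.3%) in longissimus thoracis, and 268, or 42.6% (43.2%), and 76, or 12.1% (11.3%), in the scapula muscle. In gluteus 124, or 19.7% (18.6%), were higher and 143, or 22.7% (23.7%), lower, and in intercostal muscle 153, or 24.3% (26.4%), and 125, or 19.9% (17.9%). These shares lie near those of all transcripts. Proteasome subunits had transcripts at 16 of 38 genes, and of 28 transcripts 11 (39.3%), 8 (28.6%), 5 (17.9%) and 7 (25%) were higher and 4 (14.3%), 4 (14.3%), 5 (17.9%) and 2 (7.14%) lower in longissimus thoracis, scapula muscle, gluteus and intercostal muscle. Opposite ARIH2, a ligase that works with cullins, the values were 179.6, 719.9, 825 and 1051 FPKM in longissimus thoracis, the scapula muscle, gluteus and intercostal muscle, lowest in longissimus thoracis as for CUL4A. Opposite CAND2, the muscle form of the cullin exchange factor, they were 104, 229.5, 427 and 299 FPKM in the same order. DCUN1D1, which attaches NEDD8 to cullins, had 448, 256, 262 and 268 FPKM, and MDM2, the ligase of p53, 681, 607, 770.3 and 613 FPKM. These genes were named after their values were seen.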

How the data were processed

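RNA of 4 bovine skeletal muscles was sequenced, 1 pooled library each. The authors deposited FPKM per noncoding transcript, with gene and class in its identifier. The submitters' processing notes name TopHat2 2.0.9, Cufflinks 2.1.1 and build UMD3.1, with no role or order; for strand use, filters and annotation version, no source used here gives a statement. Whole reads were recovered from all 115374 values (relative tolerance 1e-11), with library totals of 1107493 to 2132255. Recovered reads and lengths are lower bounds, which widens the intervals (exact 95% Poisson, counting error only). PCR copies and reads shared between transcripts make them too narrow, and the balance of the 2 is not known.

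Transcripts were called by size against the median of the other 3 muscles (pseudocount 1 FPKM, 2-fold, 1 FPKM or more in a library), over all 63845 transcripts. With 1 library per muscle no test was run, and p-values are not given. Named were, per role, the 3 transcripts of highest mean level, the 5 highest and 5 lowest ratios per muscle among those with 10 or more reads, the 5 genes with most transcripts, the 10 most abundant antisense transcripts and 28 genes known for muscle. Others named were chosen after their values were seen, and some genes that the rule would name are not reported here. The members and lists were chosen with earlier results of these data known. Of 157 symbols 152 matched RefSeq's gene table (ARS-UCD2.0), used for names only, and 2 more matched as synonyms. Marker lists besides those in the results had few transcripts: endothelium at 5 of 8 genes (240.1 to 419 RPM by muscle), leukocytes at 3 of 6 (4.63 to 32.8 RPM), adipocytes at 1 of 6, nerve at 2 of 5 and erythroid cells at 0 of 3. The recovery was tested on simulated data. Alternatives were other pseudocounts, folds, read minimums and scalings. Python 3.11.15, numpy 2.4.6, pandas 2.3.3, scipy 1.17.1 and matplotlib 3.10.9 were used.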

Additional observations from a re-analysis of the deposited data

How the results depend on the processing

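No paired analysis was possible because each muscle had 1 library and the labels give no replicate numbers, so no library could be left out either. Of 88 recomputed values of the counts called, counts listed and summed levels, 64 stayed within 1.5 times (counts) or within the interval (levels) and 24 moved. Some outcomes were all but fixed beforehand, so the tally does not measure how firm the results are. Every summed level moved, as each alternative dropped many reads or changed the denominator against a narrow counting interval. Leaving out WWP1 could hardly move a listing, with 270 of 275 transcripts left in longissimus thoracis. With a pseudocount of 10 FPKM, 84 transcripts were lower for longissimus thoracis (13.1%, with 12.3% of all transcripts), 103 for gluteus (16%, 13.5%), 39 for the scapula muscle (6.07%, 6.27%) and 61 for intercostal muscle (9.5%, 9.76%). Requiring the 2-fold difference against each of the other muscles left 36 lower in longissimus thoracis, 185 higher and 5 lower in the scapula muscle, 56 higher and 33 lower in gluteus, and 108 higher and 22 lower in intercostal muscle. With 10 or more reads required, 128 of 444 were higher in intercostal muscle (28.8%, with 27.9% of all). The summed level without the USP13 antisense transcript was 13162, 9776, 12055 and 10088 RPM in longissimus thoracis, scapula muscle, gluteus and intercostal muscle, without all antisense transcripts 3394, 3539, 2626 and 3118 RPM, and for intronic transcripts scaled to intronic reads alone 19156, 17390.4, 18589 and 17634. The order of muscles turned: the scapula muscle was lowest as reported and without USP13, and highest without antisense transcripts. Scaled to intronic reads alone, the intronic transcripts were lowest in the scapula muscle and highest in longissimus thoracis. The highest was gluteus as reported and longissimus thoracis without USP13. Scaling by median ratios shifted the libraries by 0.02 to 0.13 on the log2 scale, and its calls were not among those that moved. Of 120 recomputed ratios of the named extremes 66 moved, as most of these transcripts are not listed in other muscles and their ratio follows the pseudocount. Reads limit single values: a median of 23 reads stood behind a listed transcript in longissimus thoracis and of 11 to 12.5 elsewhere, and 15 to 50 transcripts per muscle rested on 1 read.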
